A study of Mus musculus with 12 samples.

Results

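Complex I, the NADH:ubiquinone oxidoreductase of the mitochondrial inner membrane, was examined through the transcripts of its nuclear-encoded subunits. A row of the deposited gene table was taken as a subunit when its gene name was Ndufab1 or Nduf followed by a, b, c, s or v and a number. Assembly factors (Ndufaf), Ndufa4, which belongs to complex IV, and its relative Ndufa4l2 were left out. This gave 36 subunits, with 1 row each, among the 43686 rows of the table. Ndufb1, the remaining nuclear subunit, had no row under that name and was not analysed here.

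Complex I takes electrons from NADH, passes them along a chain of iron-sulfur clusters to ubiquinone, and pumps protons as it does so. Its matrix arm holds the N module, where NADH is oxidised, and the Q module, where ubiquinone is reduced. Its membrane arm, the P module, pumps the protons. The catalytic subunits of the membrane arm are encoded by mitochondrial DNA, so its nuclear subunits are all supernumerary, meaning that they surround and stabilise the catalytic core without carrying out the reaction. The heart makes most of its ATP by oxidative phosphorylation (OxPhos), and complex I is a main entry point of electrons in cardiac muscle. Subunits were assigned to the N module, the Q module, the proximal P module next to the Q module, and the distal P module at the far end of the membrane arm from general knowledge of the structure.

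The RNA came from the ventricular wall of mice labelled C57BL/6 (C57BL/6J in the methods) and was sequenced as poly-A mRNA. The 6 WT hearts were from Sdhaf4fl/fl mice without Cre, labelled wild type, and the 6 KO hearts (Sdhaf4Ckmm) were from mice with the same floxed alleles and Ckmm-Cre, labelled Sdhaf4-/-. All 12 therefore carried floxed alleles. The labels give an age of 2 months for both groups, and the sources differ on it. The muscle creatine kinase promoter drives Cre in cardiac and skeletal muscle, so the fibroblasts, endothelial cells and other non-muscle cells of the KO wall were not targeted. The labels number the libraries without saying that each is a separate animal. If they are not, the p-values measure technical spread only. The study asked how the cardiac transcriptome changes when SDHAF4, which helps to assemble complex II (succinate dehydrogenase), is lost.

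Library totals were 23747014 to 27159228 counts in WT and 26542930 to 31393393 in KO. Sdhaf4 itself lay at 14.3 to 30.3 CPM (counts scaled to the size of the library) in WT and at 2.25 to 2.73 CPM in KO (log2 fold change -3.39). The defining cardiomyocyte markers were present in every library, with a summed level over 10 markers of 53120 to 58660 CPM in WT and 45790 to 63830 CPM in KO. KO replicate 3 stood apart from the other KO libraries. Of the 36 subunits, 34 had their highest KO value in that library. Values without it are given where it changed a call or a value markedly. In WT, replicate 6 was the lowest library for 21 of the 36 subunits.

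Subunit transcripts were lower throughout the complex in the KO hearts. KO was compared with WT by the quasi-likelihood test of edgeR, and p-values were adjusted by the method of Benjamini and Hochberg over the 17155 rows tested. Of the 36 subunits, 34 were lower at an adjusted p under 0.05, 1 was higher (Ndufc2) and 1 was not called (Ndufa11). Over all rows tested, 25.5% were lower and 25.6% were higher, so a count of 34 of 36 lies far from the background. The log2 fold changes ran from -0.84 to 0.17, with a median of -0.44 against 0.00 over all rows. The median subunit was at 73.8% of its WT level, and 32 subunits were between 60 and 85%. None passed the stricter thresholds of an adjusted p under 0.005 and a log2 fold change beyond 1, which 4.87% of all rows passed downwards and 5.36% upwards. The count was also 0 with DESeq2 and limma-voom. It was 0 with glmTreat against a log2 fold change of 1 too, but that test could call none, since every change was smaller than 1. All 36 passed the filter on low counts. Among the 6093 rows at least as abundant as the least abundant subunit (log2 CPM 4.67), the median log2 fold change was 0.02 and 30.8% were lower.

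**Figure D1:**
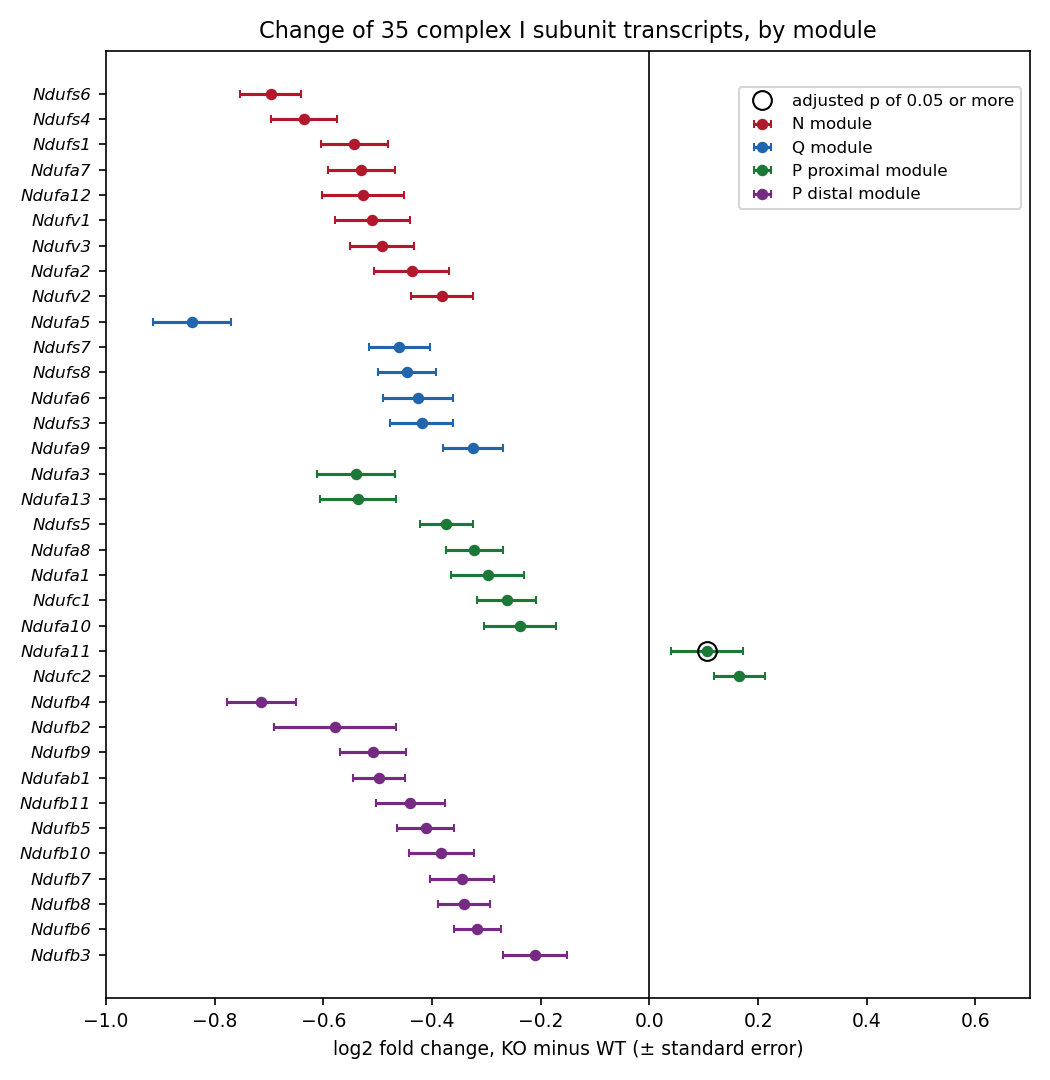
Log2 fold change (KO minus WT, horizontal axis) of 35 subunits with its standard error, grouped and coloured by module. Only Ndufc2 and Ndufa11 lie right of 0, and Ndufa5, at -0.84, lies farthest to the left.

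Separation between the groups was close to complete. All 6 KO libraries lay below all 6 WT libraries in 29 subunits, an arrangement seen in 15.2% of all rows, and above all of them in 1 subunit, as in 14.9% of all rows. The subunits that were lower with overlapping groups were Ndufa1, Ndufa10, Ndufb2, Ndufb3 and Ndufb7. Without KO replicate 3, 32 subunits had all KO libraries below all WT libraries. Counted by library, 29 to 34 subunits were under the lowest WT value in each KO heart. The 36 subunits together took 1.39 to 1.49% of the counts in the WT libraries (median 1.43%). In the KO libraries they took 1.03 to 1.16% (median 1.05%), and 1.16% was the share in KO replicate 3.

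**Figure D2:**
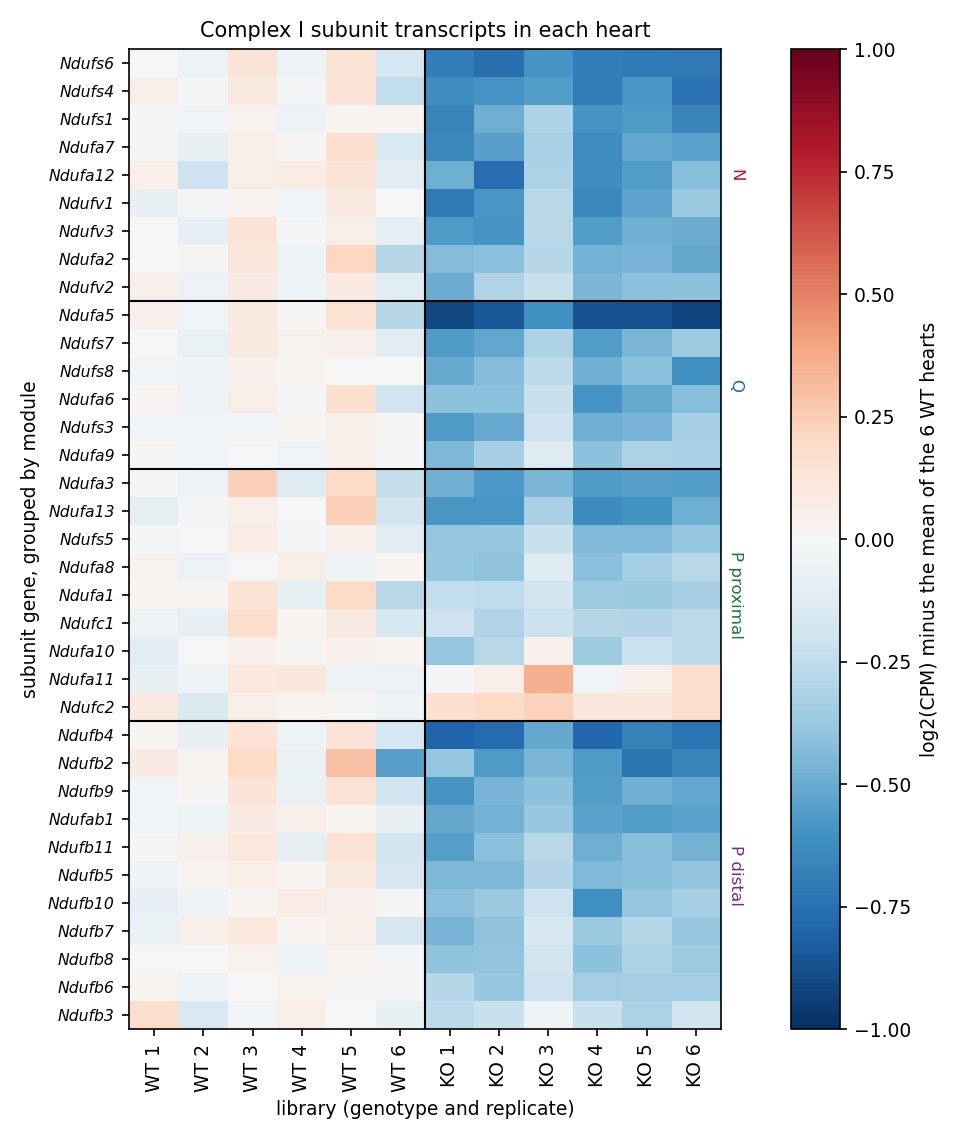
Log2 CPM of 35 subunits (rows, by module) in each of the 12 hearts (columns), minus the mean of the 6 WT hearts; blue is lower and red is higher. KO replicate 3 is paler than the other KO columns, and the rows of Ndufa11 and Ndufc2 are the ones that turn red in KO.

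Some values moved with the way the counts were scaled. With each library's trends on length and GC content of the genes taken out, a check added after seeing the data, the median over the subunits was -0.33, with 32 lower and 1 higher. The calls of Ndufa1 (-0.04) and Ndufb3 (-0.03) were lost. In all, 14 subunits moved by over 1.5 times. Besides those 2 they were Ndufc1 (-0.14), Ndufb6 (-0.12), Ndufs5 (-0.18), Ndufa8 (-0.19), Ndufv2 (-0.22), Ndufa2 (-0.23), Ndufa6 (-0.23), Ndufb10 (-0.24), Ndufb11 (-0.28) and Ndufa7 (-0.33), with Ndufa11 (0.07) and Ndufc2 (0.36) on the positive side. Relative to the median of the cardiomyocyte markers (-0.25), the median was -0.19, and 32 subunits lay below that marker median. The others were Ndufa10, Ndufb3, Ndufa11 and Ndufc2. Without KO replicate 3 the median relative to the markers was -0.16, with 31 subunits below the marker median. The markers themselves ran from -0.89 (Tnni3) to 1.05 (Mybpc3), so these relative values are not a correction for cell composition.

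Sequence just upstream of the start is printed for the subunits at the ends of the response, so that windows of strongly lowered and raised transcripts can be read side by side. They are Ndufs6, Ndufa5, Ndufa3 and Ndufb4, each the most lowered of its module in the comparison above, and Ndufc2, the raised subunit. Ndufs4 lay below Ndufs6 with length and GC trends removed, and Ndufa13 lay below Ndufa3 without KO replicate 3. Over the alternative settings that kept all libraries, Ndufa3 ran from -0.551 to -0.377 and Ndufa13 from -0.545 to -0.5. Each window is the stretch of 250 bases before the transcription start in RefSeq (build GRCm38.p6), read 5′ to 3′ on the gene's strand. Capitals mark matches to either of the motifs found in these windows, GCGCA followed by any base and GCGC for NRF1 and AAGGTCA for the estrogen-related receptors (ERR), on either strand. NRF1 and the ERRs are known regulators of respiratory chain genes.
Ndufs6: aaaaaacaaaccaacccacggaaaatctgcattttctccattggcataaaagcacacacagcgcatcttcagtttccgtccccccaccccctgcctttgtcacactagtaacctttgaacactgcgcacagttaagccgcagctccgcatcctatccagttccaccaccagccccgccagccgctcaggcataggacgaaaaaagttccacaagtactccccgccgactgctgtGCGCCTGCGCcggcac
Ndufa5: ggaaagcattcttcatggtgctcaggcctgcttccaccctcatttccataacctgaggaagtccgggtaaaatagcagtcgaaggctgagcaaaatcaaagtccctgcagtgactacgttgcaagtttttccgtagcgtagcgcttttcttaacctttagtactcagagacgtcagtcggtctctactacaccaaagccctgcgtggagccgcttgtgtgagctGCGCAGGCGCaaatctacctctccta
Ndufa3: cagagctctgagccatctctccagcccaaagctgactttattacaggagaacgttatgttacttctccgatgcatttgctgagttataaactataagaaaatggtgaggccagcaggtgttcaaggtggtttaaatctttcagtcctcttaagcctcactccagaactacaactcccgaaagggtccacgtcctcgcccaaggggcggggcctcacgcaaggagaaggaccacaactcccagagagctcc
Ndufb4: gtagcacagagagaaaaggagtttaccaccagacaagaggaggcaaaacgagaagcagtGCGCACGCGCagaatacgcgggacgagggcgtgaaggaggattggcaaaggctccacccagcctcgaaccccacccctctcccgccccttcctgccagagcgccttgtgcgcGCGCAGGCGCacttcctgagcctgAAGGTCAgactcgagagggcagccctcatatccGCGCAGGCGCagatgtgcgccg
Ndufc2: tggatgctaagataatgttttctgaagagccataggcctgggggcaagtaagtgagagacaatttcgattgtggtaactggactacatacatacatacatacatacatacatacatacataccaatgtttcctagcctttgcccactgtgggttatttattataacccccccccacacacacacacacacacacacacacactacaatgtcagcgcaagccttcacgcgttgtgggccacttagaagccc
The windows are chr13:73328483-73328732 (minus strand) for Ndufs6, chr6:24527691-24527940 (minus) for Ndufa5, chr7:3617123-3617372 (plus) for Ndufa3, chr16:37654369-37654618 (minus) for Ndufb4 and chr7:97399753-97400002 (plus) for Ndufc2. RefSeq lists 2 starts for Ndufa5, of which the 5′-most was used. Ndufs6 held 1 NRF1 match, from base -16 to -7 counted from the start, Ndufa5 held 1 from -26 to -17, and Ndufb4 held 3 NRF1 matches and 1 ERR match. Ndufa3 and Ndufc2 held neither.

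Such letters were not a common property of the subunits. Of the 32 subunits with a RefSeq window, 6 held the NRF1 motif (18.8%), against 8.94% of the 9766 tested genes with a window and 4.23% of all 27025. The ERR motif was in 3 subunits (9.4%; 3.5% of tested genes and 4.7% of all). The ETS motif CCGGAAG, bound by the GABP factor, was in 3 (9.4%; 14.99% and 7.83%), and the YY1 motif AANATGGCG was in 2 (6.2%; 2.42% and 1.29%). Among 31 genes of complexes III to V with a window, 6 held the NRF1 motif, 3 the ERR, 8 the ETS and 2 the YY1 motif. In all, 20 subunits of complex I held none of the 4 motifs. Those with the NRF1 motif were Ndufa5 (-0.84), Ndufb4 (-0.71), Ndufs6 (-0.70), Ndufs5 (-0.37), Ndufa8 (-0.32) and Ndufa11 (0.11), so they lay at both ends of the response. Their median log2 fold change was -0.54, and that of the subunits without the motif was -0.42. The same medians were -0.58 and -0.42 for the ERR motif, -0.49 and -0.42 for the YY1 motif, and in the other order, -0.35 and -0.44, for the ETS motif. A match describes the letters of the window and was not tested as a binding site.

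The N module, the NADH-oxidising tip of the matrix arm, had the lowest median of the modules. All 9 of its subunits were lower in KO, with a median log2 fold change of -0.53 and a range from -0.70 to -0.38, and in all 9 every KO library lay below every WT library. Ndufs6, a zinc-binding subunit at the junction with the Q module (chr13:76212326-76220981 on C57BL/6NJ, minus strand), was lowered most. Its WT values ran from 369 to 458 CPM (median 410) and its KO values from 246 to 275 CPM (median 255). The groups did not overlap, and the highest KO value was again that of replicate 3. The log2 fold change was -0.70 ± 0.06 (SE), at an adjusted p of 3.22e-08 by edgeR's quasi-likelihood test. Ndufs4, another accessory subunit of this junction, whose inactivation in mice is used as a model of Leigh syndrome, followed at -0.64. With length and GC trends removed, Ndufs4 was at -0.53, below Ndufs6 at -0.48.

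Ndufs1 is the largest core subunit and carries several of the iron-sulfur clusters. It lay at 848 to 903 CPM in WT (median 887) and at 555 to 711 CPM in KO (median 590). The groups were clearly apart (log2 fold change -0.54 ± 0.06, adjusted p 1.25e-06). Ndufv1, which binds the FMN cofactor and NADH, was at -0.51. Ndufv2, the iron-sulfur partner of Ndufv1, was the least lowered of the module. Its values were 520 to 595 CPM in WT (median 562) and 397 to 480 CPM in KO (median 422), again without overlap, and the log2 fold change was -0.38 ± 0.06, at an adjusted p of 3.15e-05 (-0.22 with length and GC trends removed). The smaller accessory subunits Ndufa7 (-0.53), Ndufa12 (-0.53), Ndufv3 (-0.49) and Ndufa2 (-0.44) lay between these values.

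Ndufa7 and Ndufv3 each had a KO library far from the rest. Ndufa7 was at 189 to 236 CPM in WT (median 210) and at 135 to 168 CPM in KO (median 145). Ndufv3 was at 223 to 262 CPM in WT (median 238) and at 158 to 197 CPM in KO (median 166). In both, replicate 3 was the highest KO value and still lay below every WT library, and the adjusted p was 2.26e-06 for Ndufa7 (-0.53, or -0.33 with length and GC trends removed) and 2.78e-06 for Ndufv3.

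The Q module links the iron-sulfur chain to ubiquinone, and its 7 subunits were all lower without overlap, with a median of -0.45. Ndufa5, an accessory subunit of the matrix arm (chr6:22780931-22791787 on C57BL/6NJ, minus strand), was the most lowered subunit of the complex. Its WT values ran from 419 to 568 CPM (median 522) and its KO values from 270 to 334 CPM (median 278). The lowest WT library was replicate 6 and the highest KO library was replicate 3, and a gap remained between them. The log2 fold change was -0.84 ± 0.07, at an adjusted p of 6.13e-08, which put it at 55.8% of WT. Leaving out 1 library at a time gave -0.90 to -0.82.

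The other Q subunits changed by smaller and more even amounts. The core subunits Ndufs7 (-0.46), next to the ubiquinone site, Ndufs8 (-0.45), which carries iron-sulfur clusters, and Ndufs3 (-0.42) were within a narrow range, as was Ndufa6 (-0.43), which binds an acyl carrier protein. Ndufa9, which holds a nucleotide cofactor near the membrane, was the least lowered. It was at 683 to 719 CPM in WT (median 694) and at 508 to 637 CPM in KO (median 553), without overlap (log2 fold change -0.32 ± 0.06, adjusted p 0.000106). Over the whole complex, the 7 core subunits encoded in the nucleus had log2 fold changes from -0.54 to -0.38, and the 29 supernumerary subunits from -0.84 to 0.17.

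The proximal P module was the one with subunits that were not lower. Of its 9 subunits, 7 were lower, 1 was higher and 1 was not called, with a median of -0.30, or -0.18 with the length and GC trends removed. Ndufa3, a small membrane subunit (chr7:513819-516773 on C57BL/6NJ, plus strand), was lowered most. It was at 325 to 452 CPM in WT (median 375) and at 258 to 280 CPM in KO (median 262), without overlap (log2 fold change -0.54 ± 0.07, adjusted p 9.04e-06). Ndufa13, also known as GRIM-19, had the same size of change (-0.54). Without KO replicate 3, Ndufa13 was at -0.59 and Ndufa3 at -0.56. Over the alternative settings that kept all libraries, Ndufa3 ran up to -0.377 and Ndufa13 up to -0.5. The span of Ndufa13 shares the strand with Yjefn3, so its count may hold reads of that gene.

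Ndufc2 was the subunit that rose. It is a membrane subunit that meets Ndufc1 in the complex (chr7:103985606-103994805 on C57BL/6NJ, plus strand). Its values were 132 to 156 CPM in WT (median 148) and 157 to 171 CPM in KO (median 164). All KO libraries were above all WT libraries, by a small margin between the nearest ones. The log2 fold change was 0.17 ± 0.05, at an adjusted p of 0.0075, and it stayed positive without any 1 library (0.14 to 0.18) and with the length and GC trends removed (0.36). A row without a gene name on the same strand overlaps it and had at most 8 counts per library. Its partner Ndufc1 was lower (-0.26).

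Ndufa11, a membrane subunit with a fold like that of the Tim17 family, was the subunit that was not called (chr17:60694614-60701100 on C57BL/6NJ, plus strand). It was at 244 to 278 CPM in WT (median 250) and at 252 to 329 CPM in KO (median 268). The groups overlapped over most of the WT range, and the highest value was that of KO replicate 3. The log2 fold change was 0.11 ± 0.07, at an adjusted p of 0.191. Without KO replicate 3 it was 0.05, at an adjusted p of 0.503.

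Ndufa1, an X-linked membrane subunit, and Ndufa10, a nucleoside kinase-like subunit on the matrix side, were lower with overlapping groups. Ndufa1 was at 213 to 295 CPM in WT (median 263) and at 200.05 to 226 CPM in KO (median 211), so that the lowest WT library fell within the KO range. Its log2 fold change was -0.30 ± 0.07, at an adjusted p of 0.00149, and it is one of the calls lost with the length and GC trends removed. Ndufa10 was at 558 to 618 CPM in WT (median 604) and at 457 to 616 CPM in KO (median 496). Its KO replicate 3 reached the WT values, whereas the other KO libraries did not pass 516 CPM. The log2 fold change was -0.24 ± 0.07, at an adjusted p of 0.00591, and without KO replicate 3 it was -0.31, at an adjusted p of 5.59e-05. The intermembrane space subunits Ndufs5 (-0.37) and Ndufa8 (-0.32) completed the module. Ndufs5 was at 248 to 281 CPM in WT (median 266) and at 196 to 228 CPM in KO (median 204), apart in every library, with an adjusted p of 7.44e-06. With length and GC trends removed it was at -0.18.

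The distal P module forms the far end of the membrane arm, and all 11 of its subunits were lower, 8 of them without overlap, with a median of -0.41. Ndufb4 (chr16:36969439-36976722 on C57BL/6NJ, minus strand) was lowered most. Its values were 257 to 318 CPM in WT (median 286) and 165 to 202 CPM in KO (median 171). The groups were well apart (log2 fold change -0.71 ± 0.06, adjusted p 9.18e-08). RefSeq names the gene copies Ndufb4b and Ndufb4c, which have no row in the table, so reads that fit several copies may have been handled in a way not seen here. The same holds for copies of Ndufa11, Ndufa12, Ndufab1, Ndufs5 and Ndufs6, and 7 copies are named in all.

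Ndufb2 was the least abundant subunit. It was at 20.6 to 36.9 CPM in WT (median 31.2) and at 18.2 to 23.0 CPM in KO (median 20.3). WT replicate 6 fell within the KO range, and the other WT libraries lay above it. The log2 fold change was -0.58 ± 0.11, the largest standard error of the members, with an adjusted p of 0.000415. Its span overlaps that of Braf on the other strand, and whether reads were counted by strand is not given in the sources used here.

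Ndufb3, a small membrane subunit, was the least lowered of the module. It was at 194 to 243 CPM in WT (median 214) and at 173 to 209 CPM in KO (median 185). The groups overlapped (log2 fold change -0.21 ± 0.06, adjusted p 0.00675), a call lost with the length and GC trends removed. Ndufb5 was at 397 to 477 CPM in WT (median 450) and at 325 to 363 CPM in KO (median 329), without overlap (log2 fold change -0.41, adjusted p 5.01e-06). Ndufab1, the mitochondrial acyl carrier protein, which also occurs in the Q module and serves in fatty acid synthesis, was at -0.50. The others were Ndufb9 (-0.51), Ndufb11 (-0.44), Ndufb10 (-0.38), Ndufb7 (-0.35), Ndufb8 (-0.34) and Ndufb6 (-0.32).

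The lowest and the highest module were the same in every KO heart. In 6 of 6 KO libraries the N module had the lowest median deviation from the WT mean and the proximal P module the highest. In KO replicate 3 the N median was -0.31, and in the other KO libraries it ran from -0.62 to -0.51. With Ndufa6 moved to the N module and Ndufa7 and Ndufa12 moved to the Q module, the medians were -0.50 and -0.46. With the length and GC trends removed, the N module was still lowest (-0.42), and the distal P module (-0.34) then lay below the Q module (-0.33). No test was made of the differences between modules, since subunits are not replicates.

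**Figure D3:**
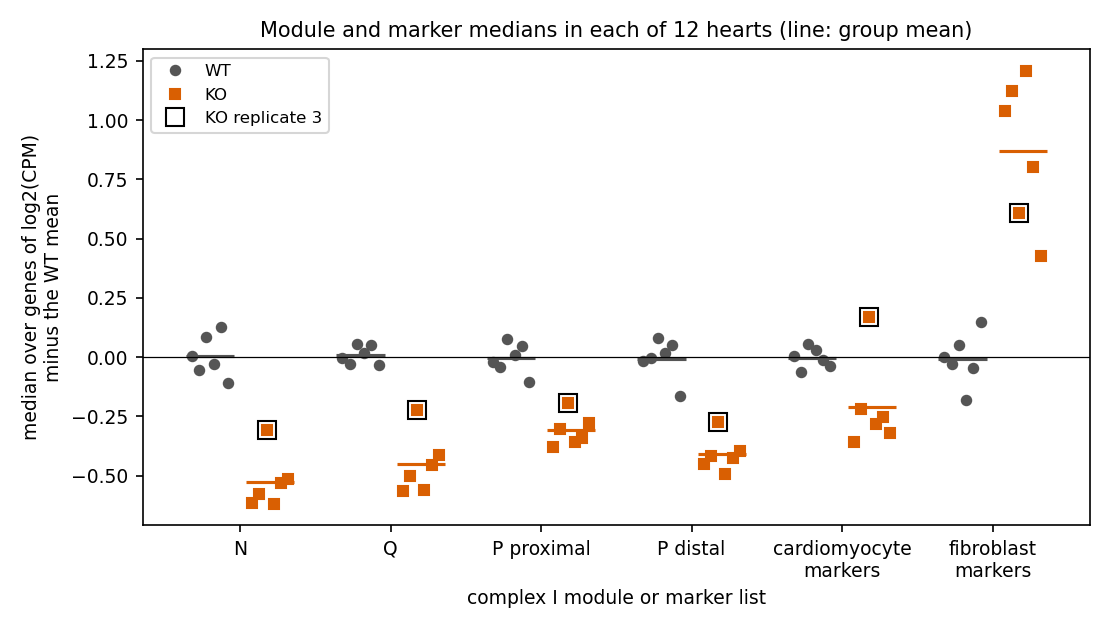
Median over genes of log2 CPM minus the WT mean (vertical axis) for the 4 modules and for the cardiomyocyte and fibroblast markers, with 1 point per heart and a line at each group mean. KO replicate 3 (boxed) is the KO heart closest to WT in every module and the only one above 0 for the cardiomyocyte markers, at 0.17.

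Markers of the cell types of the wall are set beside all rows tested, of which 25.5% were lower and 25.6% were higher. Of 10 cardiomyocyte markers 5 were lower and 2 were higher, with a median log2 fold change of -0.25. Without KO replicate 3, 6 were lower and 2 higher, with a median of -0.32. Per library their median deviation was -0.36 to -0.22 in the KO hearts other than replicate 3, where it was 0.17. Of 8 fibroblast markers 7 were higher and 1 was lower, with a median of 0.90 and a summed level of 2902 to 3459 CPM in WT and 3740 to 5510 CPM in KO. Of 7 endothelial markers 4 were higher and 1 was lower (1399 to 1553 CPM in WT, 1485 to 1796 CPM in KO), and of 7 smooth muscle and pericyte markers 2 were higher and 2 lower (1272 to 1496 and 1334 to 1782 CPM). Of 6 macrophage markers tested 1 was higher and 2 were lower (207 to 284 CPM in WT, 209 to 278 CPM in KO). Of 4 skeletal muscle markers tested 1 was higher (Acta1, which the stressed heart also expresses) and 2 were lower. The 2 were Ckm (-0.95), abundant in these hearts at a mean of 2118 CPM in WT, and Mylpf (-1.81), scarce at a mean of 1.38 CPM in WT. Lymphocyte markers summed to 12.7 to 20.7 CPM in WT and 13.6 to 30.1 CPM in KO, with a smallest adjusted p of 0.548 over the 4 tested (edgeR's quasi-likelihood test), and the smallest over the 2 erythroid markers tested was 0.409. The 5 adipocyte markers summed to at most 1.38 CPM, too low for the filter. No marker of these lists was at 0 in all libraries. Fewer cardiomyocytes and less of these transcripts per cardiomyocyte cannot be told apart in bulk tissue, and the part of cell composition in the lower subunit levels was not tested.

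Levels of the subunits were compared per length, as the deposited FPKM (fragments scaled to gene length and library size). The median subunit was at 486 FPKM in WT and at 370 FPKM in KO, and 34 of 36 exceeded 100 FPKM in WT. By these values, the most abundant in WT included Ndufb9 (1034 ± 78.1 FPKM, SD, n = 6), Ndufv1 (995 ± 34.2), Ndufa5 (985 ± 83.2) and Ndufb10 (965 ± 31.4). Each of these differed from the next by less than the larger of their spreads. The lowest was Ndufb2 (24.4 ± 4.19 FPKM), followed by Ndufa11 (96.5 ± 5.09) and Ndufb7 (122 ± 6.95), each apart from the next by more than these spreads. By FPKM, subunits that occur at a fixed ratio in the complex thus had widely different transcript levels. For Ndufa11 and Ndufb7, the FPKM rest on long lengths (2661 and 2529 bases). Their mean counts in WT were 257 and 310 CPM, above those of Ndufc2 (146 CPM) and Ndufs4 (233 CPM). The part of the lengths in the FPKM differences was not tested.

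The order was almost kept in KO, with a Spearman correlation of 0.978 between the mean levels of the 36 subunits in WT and in KO. This is a description over subunits measured in the same libraries. Ndufa5 moved from the fourth to the eighth place, and Ndufc2 moved up from place 32 to place 27. Level and change were weakly related over the subunits, with a Spearman correlation of -0.27 between WT FPKM and log2 fold change. The length that the FPKM imply is shorter than the length column by more than 1% in 25 of the 36 subunits, so the order of abundance depends on which length is right. Scaled by the length column, Ndufb9 stayed at 1034, while Ndufb10 came to 693, Ndufa5 to 584 and Ndufv1 to 565 on the same scale. Ndufb2 remained the lowest, at 6.96, and Ndufb7 (69.7) fell below Ndufa11 (96.5).

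**Figure D4:**
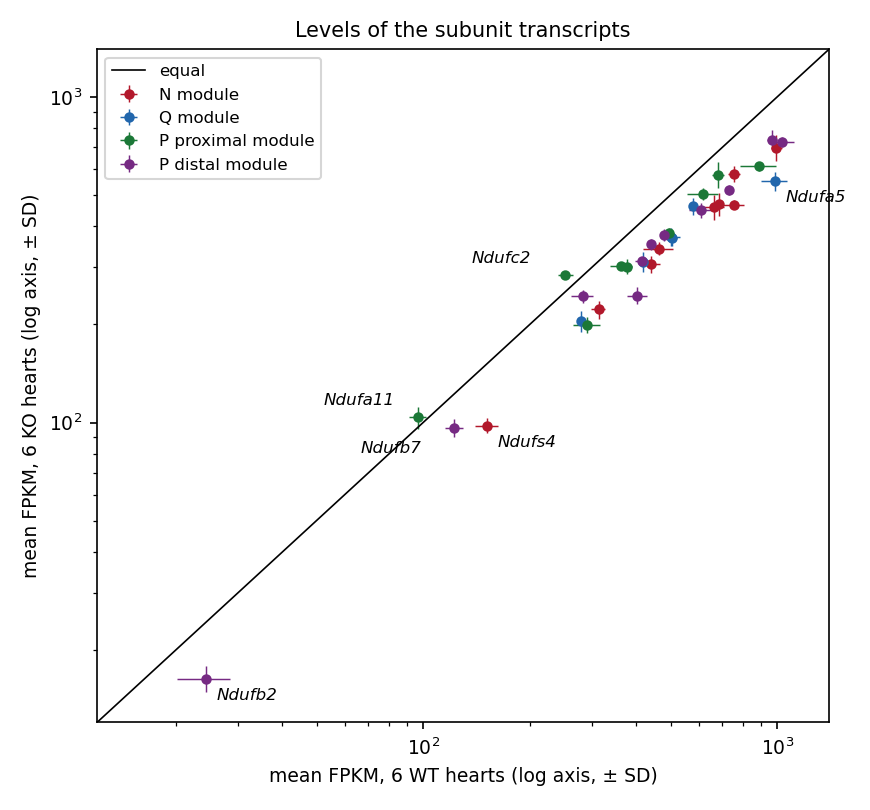
Mean FPKM in the 6 WT hearts (horizontal, log axis) against the 6 KO hearts (vertical, log axis), with the SD as bars and the line of equal values; each of the 35 points is a subunit, coloured by module. Ndufc2 and Ndufa11 lie above the line, and Ndufb2, at 24.4 FPKM in WT, lies far below the rest.

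Complex I assembly factors, which build the complex without staying in it, were less uniform. Among all rows tested, 25.5% were lower and 25.6% were higher. Of 15 assembly factors tested, 9 were lower and 2 were higher, with a median of -0.20. Ecsit had the smallest p among the lower ones (-0.58, adjusted p 1.13e-07 by edgeR's quasi-likelihood test), and Ndufaf4, named after its value was seen, had the largest change (-0.66). The higher ones were Ndufaf1 (0.25, adjusted p 0.00182) and Acad9 (0.16, adjusted p 0.0122), which act together with Ecsit in building the membrane arm. The 3 assembly factors not tested had no row under their names.

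Subunits of the other respiratory complexes were lower by amounts like those of complex I. As a background, 25.5% of all rows tested were lower and 25.6% were higher. The counts of lower genes were 3 of 4 in complex II (median -0.40) and 9 of 9 in complex III (-0.33). They were 13 of 16 in complex IV (-0.49, with 2 higher) and 16 of 18 in complex V (-0.43, with 1 higher). The smallest p among the lower genes was that of Sdhb in complex II (-0.43), Uqcrc1 in complex III (-0.52), Cox7a1, a heart and muscle isoform, in complex IV (-1.20) and Atp5g2 in complex V (-0.60). Among the higher genes it was that of Cox6a1, the non-muscle isoform of a complex IV subunit (0.43), and Atpif1, the inhibitor of complex V (0.23), a call that was lost without KO replicate 3. Sdhd, the complex II subunit that was not called, was at -0.06 with an adjusted p of 0.402. Ndufa4 was at 911 to 1140 CPM in WT and 635 to 706 CPM in KO (log2 fold change -0.61). Its relative Ndufa4l2 was at 15.4 to 25.1 CPM in WT and 20.9 to 30.6 CPM in KO, with an adjusted p of 0.139. The lower level was thus not particular to complex I, and no difference between complexes was tested.

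**Figure D5:**
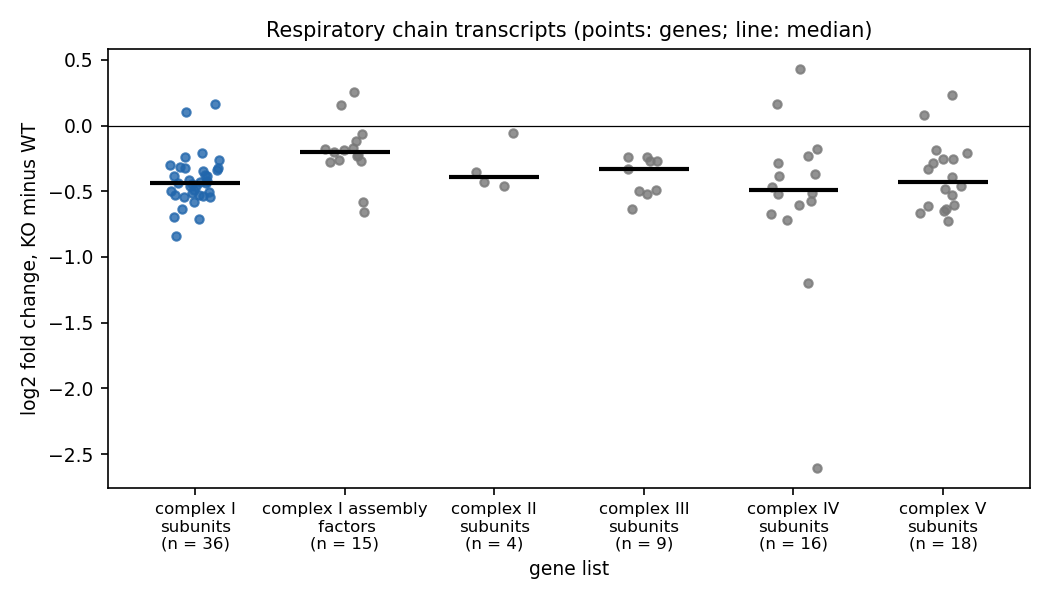
Log2 fold change (KO minus WT, vertical axis) of the genes of each respiratory complex and of the complex I assembly factors, with 1 point per gene and a line at the median. The medians are -0.44 for complex I, -0.20 for its assembly factors and -0.33 to -0.49 for complexes II to V.

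Few regulators of OxPhos genes were called, where 25.5% of all rows tested were lower and 25.6% were higher. Of 10 regulators listed, 9 had a row under their names and were tested. Of these 9, Gabpa, the DNA-binding part of GABP, was lower (-0.23, adjusted p 0.0118 by edgeR's quasi-likelihood test). None was higher, and 2 were lower without KO replicate 3. By choice after the values were seen, Ppargc1a, a coactivator of mitochondrial genes, and Nrf1 are given too. Ppargc1a was at -0.03 ± 0.15, and Nrf1 was at 0.01 ± 0.08. The KO libraries spread widely for Ppargc1a (118.1 ± 32.5 CPM, SD, against 120.5 ± 6.94 CPM in WT). The mitochondrially encoded subunits of complex I were not analysed here as genes. The table holds 3 unannotated rows at nuclear positions that it describes as NADH dehydrogenase subunit 5, and their log2 fold changes were -0.08, -0.11 and -0.13, with adjusted p of 0.629, 0.296 and 0.177. Those at -0.08 and -0.11 overlap on opposite strands of chromosome 13, so they are not separate places.

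The genes lie apart in the genome. The 36 subunits are on 15 chromosomes, with 5 on chromosome 17 and 2 on the X chromosome (Ndufa1 and Ndufb11). Ndufs8 and Ndufv1 are 111570 bases apart on chromosome 19 and were lowered alike (-0.45 and -0.51). In 14 of 36 the span overlaps another row with counts, such as Eef1b2 at Ndufs1, Mrpl47 at Ndufb5 and Rbm10 at Ndufb11, and the changes of these subunits are uncertain to that extent. Gene length and GC content were only weakly related to the change over the 36 subunits (Spearman correlations -0.05 and -0.08, as descriptions). Such correlations do not show a shift shared by all members. Removing length and GC trends moved the median over the subunits to -0.33, and the calls of Ndufa1 and Ndufb3 were lost.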

How the data were processed

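Ventricular wall RNA in 6 WT and 6 KO libraries was sequenced after poly-T purification with a TruSeq kit. Per the submitters' processing notes, reads were mapped with HISAT2 2.0.5 (build mm10), whereas the identifiers and coordinates in the table are of the C57BL/6NJ assembly. The authors counted reads per gene with HTSeq and deposited raw counts, together with FPKM values scaled by gene length and library size. In 29.6% of 13024 rows with at least 100 counts, the FPKM matched the length column within 1%. The authors' fold changes and p-values from DESeq, and their group means, were not used.

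The counts were fitted with edgeR 4.0.16 (R 4.3.3). The filterByExpr function kept 17155 rows, library sizes were scaled by TMM, KO was tested against WT with robust quasi-likelihood dispersions, and p-values were adjusted over these rows (Benjamini-Hochberg). Each standard error is the fold change divided by the root of F. CPM used TMM library sizes, and the spread of replicates includes counting error. The lowest chi-square per degree of freedom between libraries of a group was 7.5, so no libraries were merged as repeats of 1 library. That does not show that they are separate animals. The analysis was tested on simulated data.

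The members and gene lists were chosen with earlier results of these data known. The values of 1 subunit are not reported here, though it is part of the counts and medians. The other subunits are named, and those with the most and the least negative change in each module, those not called, Ndufs1, Ndufa1 and those with a library far from its group have full values. Of other lists, the genes with the smallest p in each direction are named, and further ones are marked as chosen after their values were seen. Module and list medians are descriptions without a test. Alternatives were DESeq2 1.42.0, limma 3.58.1 (voom, and log2(FPKM + 0.5)), other normalizations, filters and module assignments, a replicate block, and leaving out each library. Removing length and GC trends (loess span 0.5, 12517 rows) was added after seeing the data.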

Additional observations from a re-analysis of the deposited data

Results flagged for a closer look

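Values that lay far from the others of their group of 6 were found in 11 of the 88 groups examined by Dixon's test at its 95% critical value (0.625), where chance flags about 1 in 20 groups, or 4.4. All but 1 of them were KO replicate 3 values. The groups come from the same libraries and are not independent, so the 11 flags largely repeat 1 library. They cannot be weighed against 4.4 as separate events.

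In WT, Ndufa10 was at 558 CPM in replicate 1 and at 596 CPM or more in the other hearts. In KO replicate 3, Ndufa10 was at 616 CPM (others 457 to 516), Ndufs6 at 275 CPM (others 246 to 257), Ndufv3 at 197 CPM (others 158 to 171) and Ndufa7 at 168 CPM (others 135 to 146). In the same library Ndufb5 was at 363 CPM (others 325 to 338), Ndufs5 at 228 CPM (others 196 to 205) and Ndufa5 at 334 CPM (others 270 to 284).

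The share of counts taken by the 36 subunits was 1.16% in KO replicate 3 and 1.03 to 1.07% in the other KO libraries. The median log2 deviation of the N module from the WT mean was -0.31 there (others -0.62 to -0.51), and that of the cardiomyocyte markers was 0.168 (others -0.36 to -0.22).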

How the results depend on the processing

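Apart from the setting with length and GC trends removed, the counts of 34 lower, 1 higher and 0 past both thresholds held under every other normalization, test, filter and left-out library, and 826 of 828 single-subunit values kept their direction and their side of the threshold. The other values were those of Ndufa1 and Ndufb3 with length and GC trends removed, where the count was 32 lower. That setting moved the median over all subunits to -0.328, that of the N module to -0.416, of the Q module to -0.327 and of the proximal P module to -0.182. Relative to the cardiomyocyte markers the median over all subunits was -0.19. Why these settings moved the values was not tested.

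Leaving out 1 library at a time gave medians of -0.477 to -0.416 for all subunits, -0.578 to -0.495 for the N module, -0.492 to -0.431 for Q, -0.324 to -0.265 for proximal P and -0.445 to -0.398 for distal P, with 34 lower each time. A replicate block gave 34 lower and 1 higher, with a median of -0.435 over all subunits, and changed no call. Same-numbered libraries correlated at -0.16 to 0.02, with 1 of 6 closest to its own number, so the numbers were not taken to pair the hearts.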
